A study of Mus musculus with 18 samples.

Results

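T (brachyury), EOMES, MIXL1, MESP1, FOXA2, GSC (goosecoid), CDX2 and HAND1 are 8 transcription factors that mark the primitive streak and the tissues leaving it. Every probe carrying 1 of these names in the array table was taken, whatever its signal, which gave 11 probes of 45281 and 8 of 30854 gene names. MouseWG-6 v2.0 bead arrays were read from 18 day 3 cultures in 6 groups of 3. ES/PA6 co-cultures held murine embryonic stem (ES) cells on PA6, a bone marrow stromal line, and PA6 mono-cultures held the stroma alone. Serum-free medium held no growth factor (-GFs), recombinant FGF2 (20 ng/ml) or recombinant BMP4 (10 ng/ml), for each of the culture types. The ES cells carried an EGFP knock-in at the tau locus, a neuronal reporter, and were kept on embryonic fibroblast feeders before the experiment, per the study's methods. All groups contained PA6 cells, and RNA of a co-culture mixed both cell types, so that fewer expressing cells and less RNA per expressing cell cannot be told apart. Each biological replicate supplied 1 well per condition.

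The primitive streak is the site where epiblast cells leave the pluripotent state and become mesoderm and endoderm. NODAL, WNT and BMP signals start it, T and EOMES are T-box factors switched on early in it, MIXL1 is a homeodomain factor of the same cells, and MESP1 follows in the first cardiac and vascular mesoderm. GSC and FOXA2 mark the anterior streak, the organizer and the endoderm that arises there, CDX2 acts in trophoblast and in the posterior body, and HAND1 in lateral and extraembryonic mesoderm. GSC is also a direct NODAL target in many systems, and T a direct target of WNT acting through TCF/LEF proteins.

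T lies at chr17:8434423-8442496 and Gsc at chr12:104471209-104473236 (RefSeq, GRCm38.p6). They are the only members with a measurable signal on at least 3 arrays, and their promoters are shown for that reason. The 250 bases before each RefSeq start site, 5′ to 3′ on the strand of the gene, are given in lower case with matches to the TCF/LEF core CTTTGA (either strand) in capitals. The windows are chr17:8434173-8434422, plus strand, for T and chr12:104473237-104473486, minus strand, for Gsc.
T promoter: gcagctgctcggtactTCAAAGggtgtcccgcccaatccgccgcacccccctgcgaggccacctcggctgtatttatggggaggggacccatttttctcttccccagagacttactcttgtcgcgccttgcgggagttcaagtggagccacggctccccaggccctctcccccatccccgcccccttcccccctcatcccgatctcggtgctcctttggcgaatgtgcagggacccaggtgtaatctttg
Gsc promoter: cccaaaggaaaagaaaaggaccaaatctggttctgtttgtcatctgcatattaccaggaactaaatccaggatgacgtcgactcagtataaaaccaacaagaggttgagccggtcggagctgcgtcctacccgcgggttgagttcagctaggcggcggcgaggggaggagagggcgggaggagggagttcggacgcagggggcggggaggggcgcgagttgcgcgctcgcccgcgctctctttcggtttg

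The T window held 1 such match, which read on the minus strand and began 234 bases before the start, and the Gsc window held none. Of 32851 promoter windows of the same length, 13.8% held at least 1. RefSeq promoters were found for 6 of the 8 members (T, Eomes, Mesp1, Foxa2, Gsc and Cdx2), with 3 windows for Foxa2. The Mesp1 window held 2 TCF/LEF core matches, 72 and 31 bases before the start. None of the 6 held the GSC-type homeodomain site TAATCC (6.25% of all windows) or the T-box half-site TCACACCT (1.12%). The SMAD core CAGAC, present in 42.2% of all windows, was found once in Mesp1 and once in Cdx2. Both strands were searched for every motif, and a match describes letters in the window only.

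Detection came first, since the members were dim. A probe was called detected on an array when the deposited detection p, which sets it against the negative control beads of that array, was under 0.05. The T probe (ILMN_1244340) was detected on 5 of 18 arrays and the GSC probe (ILMN_1232648) on 7, all of them co-culture arrays. The CDX2 probe (ILMN_2725853) was detected on 1, FGF2 co-culture replicate 2, at a detection p of 0.04701. Both probes of EOMES, MIXL1 and FOXA2 and the single probes of MESP1 and HAND1 were detected on 0 of 18 arrays. In the whole table, 43% of probes were detected on 0 arrays, 6.2% on 1 or 2 and 50.8% on at least 3.

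The dimmest intensity that counted as detected was between 139.1 and 180.1 per array. EOMES, the T-box partner of T, came closest among the members never detected. Its probe ILMN_1251446 read 164.7 in BMP4 co-culture replicate 1 with a detection p of 0.07051, 121.8 and 111.6 in the other BMP4 co-cultures, 106.8 to 137.4 in -GFs and 109.3 to 128.4 in FGF2. The PA6 mono-cultures gave 78.6 to 118.5 over the 3 conditions, and on the normalized scale co-cultures lay above mono-cultures in -GFs and BMP4 but overlapped in FGF2. The second EOMES probe (ILMN_2570496) did not share the high BMP4 reading: it was 126.7, 116.5 and 105.3 with BMP4, within the 95.4 to 128.2 of the other co-cultures, and its lowest detection p over all arrays was 0.19551.

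MIXL1 read 78.6 to 132.8 (ILMN_1245893) and 83.1 to 133.6 (ILMN_2920173) over all 18 arrays, with lowest detection p-values of 0.24359 and 0.15812. MESP1 (ILMN_2687727) read 87 to 123.4, and HAND1 (ILMN_2689456) 84.5 to 124.6, with lowest detection p-values of 0.21261 and 0.16774. The FOXA2 probes read 90.3 to 115.4 (ILMN_1229325) and 83.4 to 123.9 (ILMN_1246216), the lowest detection p being 0.27671 and 0.40812. None of these 4 factors was detected in either culture type or with either growth factor. CDX2 read 117.5 to 142.6 in -GFs, 123.2 to 158.2 in FGF2 and 129.9 to 145.4 in BMP4 co-cultures, against 91.9 to 126.8 in the PA6 mono-cultures. The FGF2 reading of 158.2, from replicate 1, was the highest and was still not detected, and the 3 co-culture groups overlapped. On the normalized scale CDX2 lay above the PA6 mono-cultures in each condition. A change below background cannot be seen in these 6 members. The differences that follow are between readings at or near background and give no fold of expression. With the detection filter left off, their 9 probes differed by -0.18 to 0.25 on the log2 scale between FGF2 and -GFs co-cultures and by -0.07 to 0.15 between BMP4 and -GFs, and the lowest limma adjusted p was 0.637 and 0.996. Between ES/PA6 and PA6 the same 9 probes differed by at most 0.52, under the fold threshold, but EOMES and CDX2 had low adjusted p-values. EOMES differed by 0.41 (ILMN_1251446, adjusted p 0.0428) and 0.30 (ILMN_2570496, 0.0202) in -GFs and the first probe by 0.43 in BMP4 (0.0319), and CDX2 by 0.52 in FGF2 (0.00936) and 0.36 in BMP4 (0.0729).

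**Figure D1:**
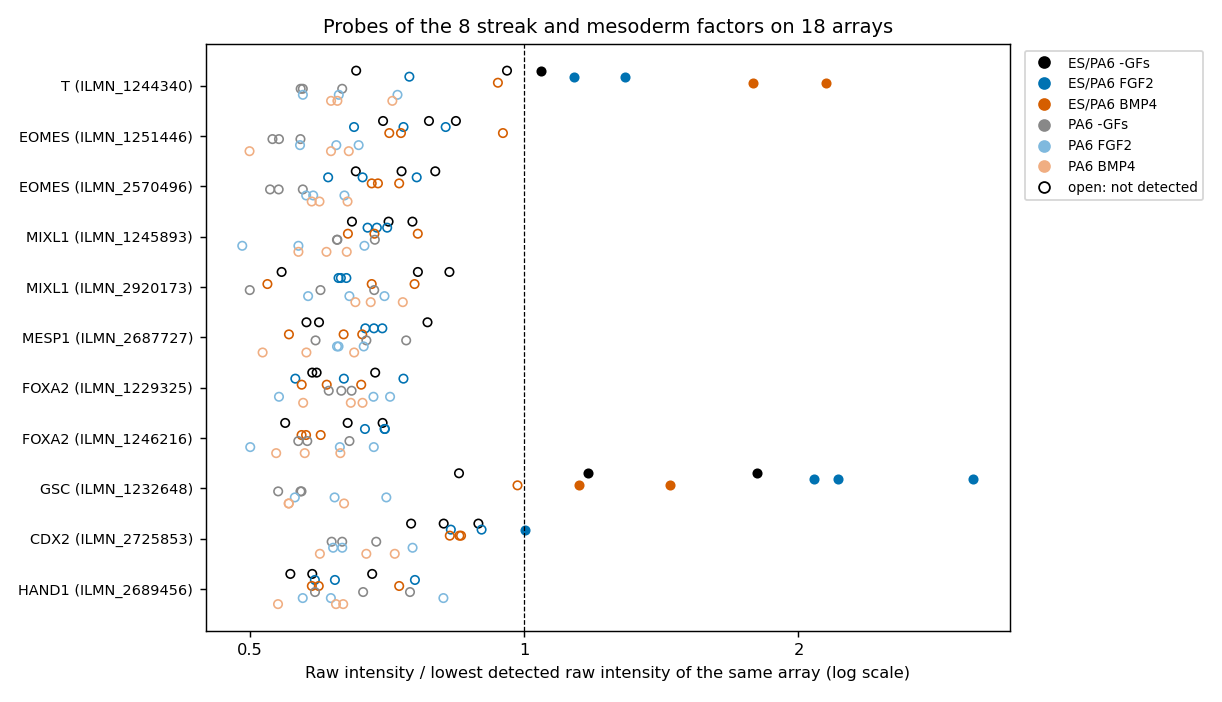
Raw intensity of all 11 probes of the 8 factors on each of the 18 arrays, divided by the lowest detected intensity of that array (log scale), with filled points for a detection p under 0.05 and colours for the 6 groups. T passes the limit on 5 arrays, GSC on 7 and CDX2 on 1, all of them co-cultures, and the other 5 factors stay left of it throughout.

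T and GSC were the 2 members tested, among 16446 genes with a probe detected on at least 3 arrays. Intensities were background-corrected, quantile normalized and put on the log2 scale, and 1 limma fit over all 18 arrays gave every comparison. Calls needed a p under 0.1 after Benjamini-Hochberg adjustment together with a log2 change of more than 1 in either direction. Adjusted p-values below are from that fit over all tested genes unless the replicate block is named. Same-numbered co-culture arrays deviated together from their group means (correlations of 0.325 to 0.521 in 9 pairs), so a second fit took the replicate number as a block, and its value stands beside a result that it changes.

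T, the factor that defines the streak, was at the detection limit without growth factors. Its raw intensity in -GFs co-cultures was 114.3, 146.1 and 163.1 in replicates 1 to 3, of which the last was detected. With FGF2 it was 131.8, 177.7 and 191.3, with replicates 2 and 3 detected. With BMP4 it was 162.6, 305.4 and 326.8, again with replicates 2 and 3 detected. In each condition replicate 1 was lowest and undetected, and replicates 2 and 3 with BMP4 stood above all other arrays. PA6 mono-cultures gave 79.5 to 118.3 with no array detected.

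On the normalized log2 scale T was 5.60 ± 0.535 (SD, n = 3) in -GFs, 5.99 ± 0.694 in FGF2 and 7.03 ± 1.14 in BMP4 co-cultures. The BMP4 difference was 1.43 ± 0.432 (SE; 95% interval 0.51 to 2.35) and was not called (limma adjusted p 0.157), and the groups overlapped through BMP4 replicate 1. Within the replicate sets BMP4 exceeded -GFs by 0.74, 1.64 and 1.91, so that the direction was the same in 3 of 3 sets. With the replicate block the same difference had an adjusted p of 0.00171 and was called. It was also called without BMP4 replicate 1, at 2.07 with an adjusted p of 0.0116. Without any other array of the 2 groups it was not called, and over all such fits it ran from 0.98 to 2.07.

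The FGF2 difference of T was 0.39 ± 0.432 (SE; 95% interval -0.53 to 1.31; adjusted p 0.738), and the sets gave 0.20, 0.52 and 0.46. Set directly against BMP4, FGF2 left T lower by 1.04 on the log2 scale (95% interval -1.96 to -0.12; adjusted p 0.217), with sets at -0.55, -1.13 and -1.44. That difference was called with the replicate block (adjusted p 0.00288) and without BMP4 replicate 1 (-1.68, adjusted p 0.00869), but in no other fit that left out 1 array, and over all 6 such fits it ran from -1.68 to -0.59. Over such fits the FGF2 difference from -GFs ran from 0.09 to 0.79. In PA6 mono-cultures T was 4.96 ± 0.114, 5.05 ± 0.172 and 5.13 ± 0.114 (SD, n = 3) in -GFs, FGF2 and BMP4. The growth factor differences there were 0.09 and 0.17, both between undetected levels.

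GSC, the organizer homeodomain factor, followed the other growth factor. Its raw intensity in -GFs co-cultures was 205.4, 129.4 and 281.7, with replicate 2 undetected. With FGF2 it was 389.6, 325.5 and 461.5, detected on all 3. With BMP4 it was 199.7, 168.4 and 220.3, with replicate 2 again undetected. All FGF2 arrays lay above all -GFs and BMP4 arrays, whereas -GFs and BMP4 overlapped. PA6 mono-cultures gave 77.9 to 127.1 with no array detected.

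On the log2 scale GSC was 6.44 ± 1.04 (SD, n = 3) in -GFs, 7.98 ± 0.345 in FGF2 and 6.41 ± 0.545 in BMP4 co-cultures. FGF2 raised it by 1.55 ± 0.369 (SE; 95% interval 0.76 to 2.33), which was called (limma adjusted p 0.0182), and the replicate sets gave 1.52, 2.27 and 0.84. BMP4 left it at a difference of -0.03 (95% interval -0.81 to 0.76; adjusted p 0.994), with sets at 0.00, 0.46 and -0.53. FGF2 also exceeded BMP4, by 1.57 (95% interval 0.79 to 2.35; adjusted p 0.0202), at 1.52, 1.81 and 1.38 in the sets. The FGF2 call against -GFs held without any 1 array (1.06 to 2.09). Without background correction its size fell to 0.91 with either quantile normalization or the cubic spline, under the fold threshold, and with a fit on the 6 arrays compared alone the adjusted p was 0.18. The call against BMP4 was lost at 0.94 in both of those normalizations and at an adjusted p of 0.102 without BMP4 replicate 2.

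**Figure D2:**
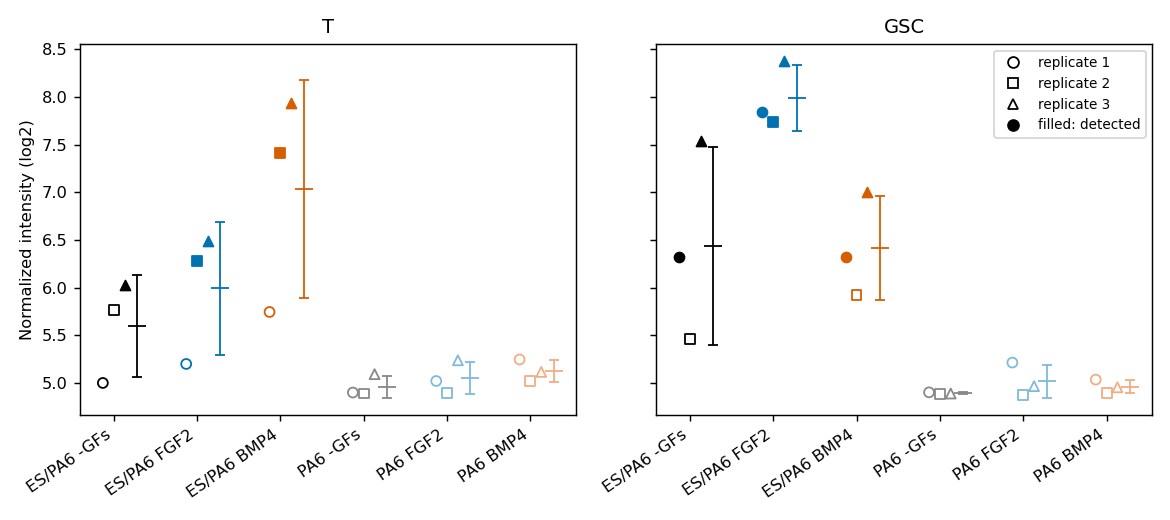
Normalized log2 intensity of T and GSC on the 18 arrays by group, with symbols for the replicate number, filled where detected, and a bar for the mean ± SD of 3 arrays. T is highest in 2 of the 3 BMP4 co-cultures, with replicate 1 low in every co-culture group, and GSC is highest in the 3 FGF2 co-cultures.

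In counts, 1 of the 8 members was called for FGF2 against -GFs in the co-cultures (GSC), where 3.34% of all tested genes were called. None was called for BMP4 against -GFs (0.76% of tested genes) by limma, where T had an unadjusted p of 0.0045, and 1 of the 8 with the replicate block (T; 1.31% of tested genes). For FGF2 against BMP4, 1 of the 8 was called (GSC; 2.85% of tested genes), and with the block both GSC and T (3.27%). In PA6 mono-cultures 0 of the 8 were called with FGF2 (5.27% of tested genes) or BMP4 (1.41%), and the lowest unadjusted p of the tested members was 0.706. The 6 remaining members did not pass the detection filter and were not tested in this fit.

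By mean level, T was ordered as BMP4, FGF2 and -GFs co-cultures and then the PA6 groups, and the FGF2 and -GFs levels lay within each other's spread. GSC had FGF2 first, then -GFs and BMP4 at nearly equal means, and then the PA6 groups. PA6 levels of both genes were undetected and had no order.

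The growth factor effects were set against those in PA6 alone by an interaction contrast. The FGF2 effect on GSC was larger in co-cultures by 1.42 ± 0.522 (SE; 95% interval 0.31 to 2.53), which missed the threshold (adjusted p 0.102). With the replicate block it passed (adjusted p 0.00467), as it did without -GFs co-culture replicate 3 (1.96, adjusted p 0.0045). The BMP4 effect on T was larger by 1.26 ± 0.612 (95% interval -0.03 to 2.56; adjusted p 0.525), and with the block its adjusted p was 0.0272. The count of members called was thus 0 of 8 for both interactions without the block (7.39% of tested genes called for FGF2 and 0.559% for BMP4) and 1 of 8 for each with it (8.28% and 1.85%). As T and GSC were below detection in all 9 mono-cultures, an effect there had no room to appear below the limit.

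Co-cultures exceeded PA6 mono-cultures in both genes. Both had entered the test only through their co-culture arrays, so these differences are a description. GSC differed by 1.55 in -GFs (adjusted p 0.00145), 2.97 in FGF2 (2.76e-06) and 1.45 in BMP4 (0.00243). Against the detection limit of the PA6 arrays that is at least 1.10-fold, at least 3.30-fold and at least 1.17-fold higher. T differed by 0.64 in -GFs (adjusted p 0.207), 0.94 in FGF2 (0.0654) and 1.90 in BMP4 (0.001), the last at least 1.79-fold higher and the only call of the 3. The counts were 1, 1 and 2 of the 8 members, and of all tested genes 39%, 37.2% and 38.1% were called in -GFs, FGF2 and BMP4. T was also called in FGF2 without FGF2 co-culture replicate 1 (1.34) or without PA6 FGF2 replicate 3 (1.03).

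**Figure D3:**
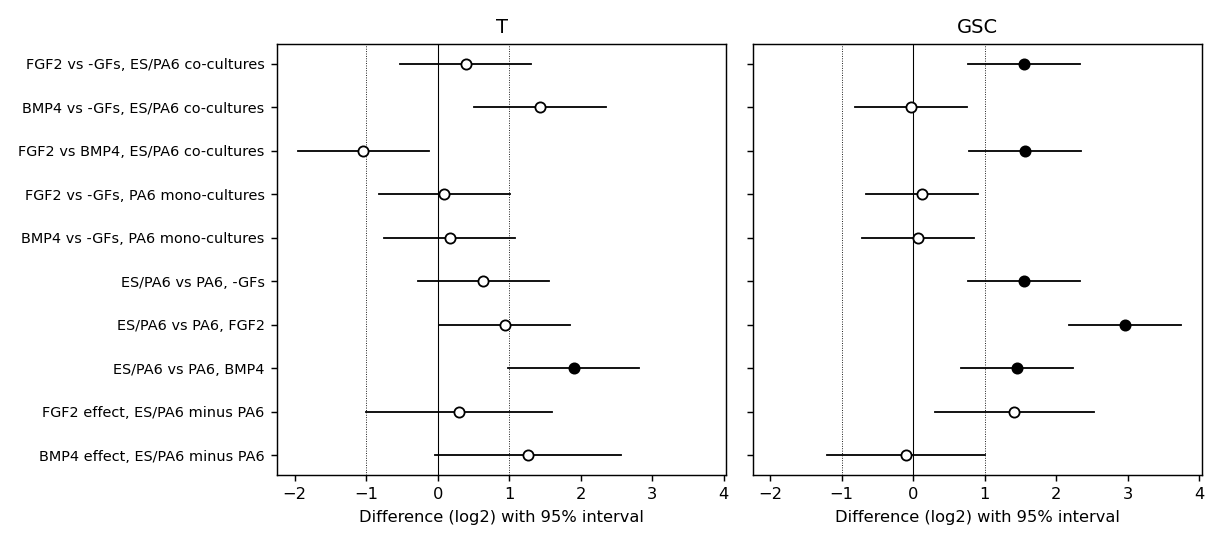
Log2 difference of T and GSC in each of the 10 comparisons with its 95% interval from the limma fit without a block, filled where called, with dotted lines at the fold threshold of 1 in either direction. GSC is called for FGF2 against both -GFs and BMP4, and T only between ES/PA6 and PA6 with BMP4.

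Replicate sets differed in both factors beyond treatment. Replicate 3 gave the highest level of T and of GSC in each of the 3 co-culture groups. Of 32 tested genes in the lists of related factors and signals described below, 9 had the same pattern (LHX1, FGF8 and WNT3A among them), or 28.1%, against 11.4% of all 16446 tested genes. LHX1, an organizer factor like GSC, was undetected in replicate 1 of every co-culture group, and read 6.98, 8.02 and 5.65 in replicate 3 of -GFs, FGF2 and BMP4, the last undetected. The labels do not say what differed between the sets.

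Over the 9 co-culture arrays, the genes whose log2 intensity followed T most closely were HNRPL (Pearson r 0.952), TCFAP2A (0.945) and PREP (0.945). TCFAP2A, the AP-2 alpha factor of surface ectoderm and trophoblast, rose with BMP4 by 1.70 (adjusted p 0.0815), while HNRPL and PREP differed by 0.21 and 0.29 and were not called. Those that followed GSC included FABP3 (0.978) and GPX3 (0.975). FABP3, a fatty acid binding protein, rose with FGF2 by 1.42 (adjusted p 0.00898), while GPX3 differed by 0.52 and was not called. These correlations describe 9 arrays that share 3 replicate sets and carry no test.

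Of 27 other streak and mesoderm transcription factors, 26 had a probe and 18 were tested. Much of their signal was stromal. In -GFs, 7 of the 18 were called lower in co-cultures than in PA6 and 6 higher, against 39% of all tested genes called. Those lower were FOXC1, FOXC2, FOXF1A, GATA6, SNAI2, TBX6 and TWIST1. The summed linear level of the 18 was 6762 to 7890 in -GFs co-cultures and 14822 to 15700 in -GFs PA6. MESP2, HAND2, GATA4, TAL1 and TBX1, like MESP1 and HAND1, were detected on 0 arrays. In FGF2 co-cultures 3 of the 18 rose (TBX3 by 2.76, SNAI1 by 1.16 and MEOX1 by 1.05; adjusted p 1.08e-06, 0.0964 and 0.0519) and 0 fell, where 3.34% of all tested genes were called. The list median was 0.08 against -0.01 over all tested genes. Other probes of the same genes moved less, by 1.41 for TBX3 and 0.31 for SNAI1. TBX3 was called in all 18 alternatives, SNAI1 in 9 of 18 and MEOX1, a somite factor, in 11 of 19. With BMP4 only TBX3 rose (1.13; adjusted p 0.02; 13 of 18 alternatives), and its other probe differed by 0.43. Of all tested genes 0.76% were called there, and the list median was 0.13 against 0.00. SNAI1 and MEOX1 also rose with FGF2 in PA6 alone (by 1.60 and 1.22), and the test of a different FGF2 effect between culture types gave -0.44 and -0.17 (adjusted p 0.692 and 0.862). TBX6, a paraxial mesoderm T-box factor, fell with FGF2 by 1.17 in PA6 alone, and its co-culture value was -0.16. EVX1, a posterior streak factor, read 6.52, 6.50 and 6.40 in -GFs and 7.27, 7.17 and 6.96 in BMP4 co-cultures, which did not overlap, but its difference of 0.66 lay under the fold threshold (adjusted p 0.0649).

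Of 17 signals of the streak and their direct readouts, 14 were tested, and WNT3, CER1 and DKK1 were not. FGF2 lowered 2 of the 14 in co-cultures and raised 0 (3.34% of all tested genes called), with a list median of -0.14. LEF1, a nuclear partner of beta-catenin and itself a WNT target, read 8.78, 8.54 and 7.88 in -GFs, 5.79, 6.08 and 5.62 in FGF2 and 7.76, 8.01 and 7.53 in BMP4 co-cultures. It fell by 2.57 with FGF2 (adjusted p 1.79e-06), and only replicate 2 of the FGF2 arrays was detected. LEFTY1, a NODAL antagonist induced by NODAL signalling, read 11.56, 10.19 and 11.31 in -GFs and 9.66, 9.48 and 9.68 in FGF2, a fall by 1.41 (adjusted p 0.00583) while GSC rose. Both calls held in 19 of 19 alternatives. NODAL itself differed by 0.14 with FGF2 and 0.35 with BMP4, LEFTY2 by -0.49 and 0.53, and neither was called. The BMP4 transcript read 10.99, 11.00 and 10.92 with FGF2, all above the 10.20, 10.45 and 10.62 of -GFs. Its difference of 0.55 was not called, and its other probe differed by 1.06. TDGF1, the NODAL co-receptor, differed by 0.93 with FGF2 (adjusted p 0.176; 0.000398 with the block), under the fold threshold. Its FGF2 effect was larger in co-cultures by 1.09, called with the block (adjusted p 0.00123) and not without it.

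By limma, 0 of the 14 signals were called with BMP4 in co-cultures (0.76% of all tested genes called), where the list median was 0.35. In PA6 alone 5 rose (ID1, ID2, ID3, SMAD6 and AXIN2, the last in 9 of 19 alternatives), where 1.41% of all tested genes were called. The BMP4 transcript fell there by 1.02 (adjusted p 0.0471). In co-cultures ID1, SMAD6 and ID3 differed by 1.0123, 0.6892 and 0.6157, and ID2 and AXIN2 by -0.8192 and -0.13, all uncalled. ID3 read 8.64 to 9.03 in BMP4 co-cultures, above the 7.84 to 8.49 of -GFs. WNT3A, which acts upstream of T in the streak, read 6.28, 8.26 and 10.42 in -GFs, 7.87, 8.77 and 9.73 in FGF2 and 5.87, 5.28 and 6.26 in BMP4 co-cultures. It was higher with FGF2 than with BMP4 by 2.99 (adjusted p 0.0178; 19 of 19 alternatives), but only replicate 3 of the BMP4 arrays was detected, so that the size of the difference is uncertain. Against -GFs it differed by -2.52 with BMP4 (adjusted p 0.11; 0.0141 and called with the block). FGF8, an FGF of the streak, read 5.75, 6.23 and 7.35 in -GFs and 6.06, 7.91 and 8.84 in BMP4, a difference of 1.15 (adjusted p 0.435; 0.024 and called with the block). The block also called FOXC2, a mesoderm forkhead factor, with BMP4 (1.12) and SP5, a WNT target, with FGF2 (1.08). FOXC2 was undetected in BMP4 replicate 3 and in -GFs replicates 2 and 3 of the co-cultures. The block called a like rise with BMP4 in PA6 alone (1.16, adjusted p 0.00931), and the interaction was -0.04. In -GFs FOXC2 was lower in co-cultures than in PA6 by 2.58. Between FGF2 and BMP4 the block added LHX1 (1.31, higher with FGF2), FGF8 (-1.58) and LEFTY2 (-1.02).

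**Figure D4:**
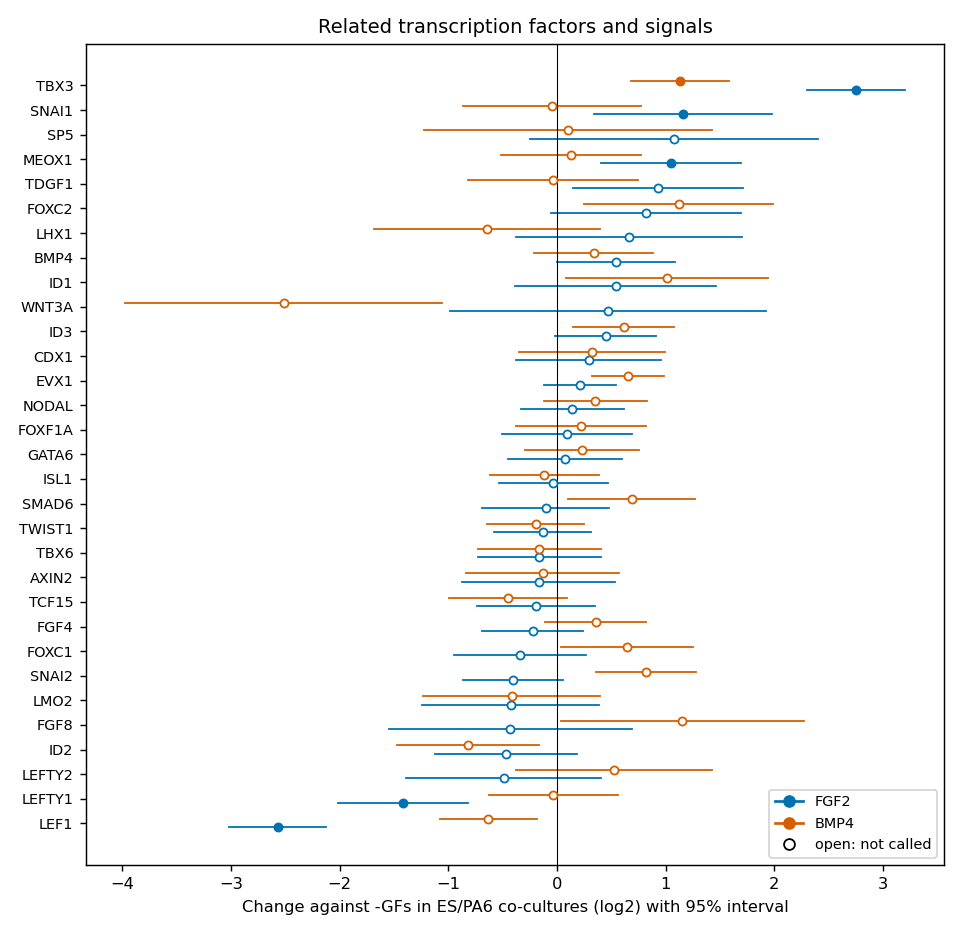
Log2 change against -GFs in ES/PA6 co-cultures for tested genes related to the 8 factors, with FGF2 in blue and BMP4 in orange, 95% intervals from the limma fit without a block, and filled points where called. LEF1 and LEFTY1 lie lowest and TBX3 highest with FGF2, TBX3 is the only gene called with BMP4, and WNT3A has the lowest BMP4 value, which was not called.

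Markers of other cell types moved with the same conditions. CDX2 is also a trophoblast factor, and of 8 markers of that lineage 6 had a probe and 4 were tested. KRT8 and PLAC1 rose with BMP4 in co-cultures by 1.47 and 1.60 (adjusted p 0.0649 and 0.0104; 11 and 16 of 19 alternatives), KRT7 differed by 0.76 and GATA3 by 0.69, and ELF5 and GCM1 were detected on 0 arrays. Their summed linear level was 1994 to 4018 in BMP4, 1052 to 1515 in -GFs and 789 to 1480 in FGF2 co-cultures. Of 3 tested neural markers ZIC1 was at least 5.24-fold lower with BMP4 (adjusted p 0.0605; 12 of 19 alternatives), and it was undetected there. Its -GFs levels were 6.52, 8.29 and 10.23. Without -GFs replicate 3 it was at least 2.73-fold lower, and without replicate 1 at least 9.87-fold. The call was lost without -GFs replicate 3 (-2.29, adjusted p 0.159) or replicate 2 (-3.26, adjusted p 0.162). It was also lost without BMP4 replicate 1, 2 or 3 (adjusted p 0.15, 0.142 and 0.102). Of 6 tested endoderm markers 0 were called with either factor, and AFP, APOA1 and GATA4 were detected on 0 arrays. Of 2 tested node and notochord markers, CHRD and FOXJ1, 0 were called, while NOG was detected on 0 arrays.

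Pluripotency markers, which the ES label calls for, were 6 of 6 higher in co-cultures than in PA6, with summed levels of 21069 to 42815 against 297 to 404. With FGF2, where GSC rose, 2 of the 6, NANOG and ZFP42, rose by 1.25 and 1.19 (adjusted p 0.0345 and 0.0491; 14 of 18 and 16 of 19 alternatives). TDGF1 differed by 0.93, SOX2 by 0.45 and POU5F1 by -0.10, and UTF1, lower on all FGF2 arrays, by -0.73 (adjusted p 0.00509, under the fold threshold). The summed pluripotency level with FGF2 was 35016 to 42815, against 21069 to 31185 in -GFs. Stromal markers were 31418 to 59900 in co-cultures and 80988 to 104751 in PA6, and in co-cultures THY1 fell with FGF2 by 1.08 (adjusted p 0.0156) and COL3A1 with BMP4 by 1.16 (adjusted p 0.082). Of 5 tested endothelial markers CDH5, KDR, TEK and ICAM2 were not called with either factor in co-cultures. CDH5 and ICAM2 were undetected in replicate 1 of every co-culture group. PECAM1 rose with BMP4 by 1.17 (adjusted p 0.0994; 7 of 18 alternatives), and its other probe differed by 0.78. This was not particular to BMP4. With FGF2 PECAM1 read 10.35, 9.71 and 9.85, against 9.56, 8.11 and 9.29 in -GFs. That difference was not called, and the other probe differed by 1.29 with FGF2. The part of these cell type levels in the T and GSC values was not tested. Between 19365 and 20412 probes were detected per co-culture array and 17125 to 18391 per mono-culture array.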

How the data were processed

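The study measured RNA of 18 cultures on Illumina MouseWG-6 v2.0 arrays read with GenomeStudio 2011.01. Each deposited intensity is a linear, non-normalized average over the beads of a probe, and a deposited detection p-value sets it against the negative controls of the same array. A further 5 stray lines after the end of the table were left out. Groups, replicate numbers and doses came from the labels; the study's methods give a lower BMP4 dose for slide cultures. The authors' own normalization was a cubic spline. Here the neqc method of limma 3.58.1 (R 4.3.3) was used, with an offset of 16, which understates changes of dim genes. Probes detected (p under 0.05) on 3 or more of the 18 arrays were kept, and the probe with the largest mean stood for its gene. A limma fit of 6 group means gave all comparisons, with Benjamini-Hochberg adjustment over 16446 genes. It was tested on simulated data in which arrays varied independently, so that test does not cover deviations shared by same-numbered arrays. Where a group was undetected, "at least" gives the brighter mean against, for each dim array, its detection limit or the probe itself if higher. The array number limits the precision: 3 arrays against 3 cannot give a permutation p below 0.1.

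The labels describe 1 well per condition in each biological replicate, and deviations of same-numbered arrays correlated at 0.325 to 0.521 in co-cultures, 0.0628 to 0.164 in mono-cultures and -0.0248 to 0.175 across them. The study names no block, so the block was an alternative, beside other normalizations, detection filters, thresholds, array weights, trend and robust fitting, and leaving out each array. The 8 genes, the lists of related genes and the markers were chosen with earlier results of these data known. Of them the study also measured T, TBX3, SNAI1, SNAI2, BMP4, WNT3, NANOG and HES5 by PCR. Its PCR also covered the endothelial markers VE-cadherin (CDH5), FLK1 (KDR), TEK, TIE1 and ICAM2. The text names every probe of the 8 genes, called genes of the lists and the 3 genes most alike, except items that are not reported here. MSGN1, DPPA5A, TFAP2C and PLET1 are names not found in the table and were not analysed here. Symbols were used as the table gives them, and positions and promoter bases are from RefSeq.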

Additional observations from a re-analysis of the deposited data

Results flagged for a closer look

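These results had a growth factor effect that was not the same with and without ES cells, by the interaction contrast of the limma fit. None of the 8 streak factors is among them in the fit without a block. With the replicate block GSC passed for FGF2 (adjusted p 0.00467) and T for BMP4 (adjusted p 0.0272). Among related transcription factors, the FGF2 effect on TBX3 was larger in co-cultures by 2.3496 ± 0.301 (SE; adjusted p 0.000151) and the BMP4 effect by 1.3352 ± 0.301 (adjusted p 0.0763). The BMP4 effect on EVX1 was larger in co-cultures by 1.052 ± 0.221 (adjusted p 0.062), in 13 of 25 alternatives. That contrast joins uncalled BMP4 differences of 0.6584 in co-cultures and -0.3936 in PA6 alone. The FGF2 effect was lower in co-cultures for LEF1 by -2.5832 ± 0.297 (adjusted p 5.02e-05), for LEFTY1 by -1.5681 ± 0.398 (adjusted p 0.0195) and for ID3 by -1.7529 ± 0.309 (adjusted p 0.00184). The BMP4 effect on the ID genes, direct BMP targets, was lower in co-cultures, for ID1 by -3.2939 ± 0.618 (adjusted p 0.033), for ID2 by -2.6722 ± 0.435 (adjusted p 0.0118) and for ID3 by -2.4511 ± 0.309 (adjusted p 0.00141). LEF1 and LEFTY1 were undetected in all PA6 mono-cultures, so their contrast rests on the co-culture fall. The BMP4 contrast for TBX3 was called in 11 of 24 alternatives, and those of LEF1, LEFTY1, ID1, ID2 and ID3, and of TBX3 with FGF2, in all of theirs. Among related genes the replicate block added FGF2 contrasts for FOXC1 (-1.0098, adjusted p 0.011), TBX6 (1.0084, 0.0564) and TDGF1 (1.0945, 0.00123). It added BMP4 contrasts for the BMP4 transcript (1.3617, adjusted p 0.016), AXIN2 (-1.2868, 0.0397), FGF8 (1.2466, 0.0961) and WNT3A (-2.4706, 0.0921).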

How the results depend on the processing

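The number of the 8 members called kept its value in most alternatives, and the exceptions turn on T or GSC alone. For FGF2 against -GFs in co-cultures it was 0 in place of 1 with quantile normalization or the cubic spline without background correction and with only the arrays compared. For BMP4 against -GFs it was 1 in place of 0 with the replicate block, and 0 to 1 when leaving out 1 array. For FGF2 against BMP4 it was 0 with quantile normalization or the cubic spline, 2 with the replicate block and 0 to 2 when leaving out 1 array. Between ES/PA6 and PA6 with FGF2 it was 2 in place of 1 with no fold threshold and 1 to 2 when leaving out 1 array. With BMP4 it was 1 in place of 2 with quantile normalization, the cubic spline or detection on at least 6 arrays, where T was not tested. For the FGF2 interaction it was 1 in place of 0 with median scaling, detection on at least 6 arrays, the replicate block, array weights or trend and robust fitting, and 0 to 1 when leaving out 1 array. For the BMP4 interaction it was 1 with the replicate block. The replicate block changed no other count for the 8 members. Values that changed sign were all uncalled. The BMP4 difference of GSC was 0.0108 with median scaling, 0.073 with array weights and -0.5123 to 0.5218 when leaving out 1 array. Its BMP4 interaction was 0.0076 with array weights and -0.5833 to 0.4508 when leaving out 1 array. The FGF2 difference of T in PA6 alone was -0.0019 without PA6 FGF2 replicate 3, and -0.0019 to 0.1685 when leaving out 1 array. Apart from smaller sets of arrays or genes, the cause was not tested. Signal over background limits the other 6 members, which no alternative that required detection on at least 3 arrays could test.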
